A study of Triticum aestivum with 27 samples.

Results

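Gene expression was compared between spikes of Shengsimai and Zhoumai18 after 48 h of a sprouting treatment, in 3 libraries of each variety. Shengsimai is a red-grained wheat that was graded highly resistant to pre-harvest sprouting, and Zhoumai18 is a white-grained wheat that was graded highly susceptible. All genes with an FPKM (fragments per kilobase of gene length, scaled to library size) of 1 or more in at least 3 of these 6 libraries were taken, which gave 53348 of the 153699 genes in the table. The spikes were cut at wax ripening, put in water for 4 h and held moist at 22 °C and 95% humidity, and each library came from a single spike. Spikes of the same varieties were also frozen after soaking (0 h) and after 96 h, and the white-grained, resistant variety Baipimai was treated alike. Only 1 variety stood on each side, so grain colour, sprouting resistance and every other difference between the varieties cannot be told apart here. The 6 libraries held 47944660 to 55765523 counts, and reads of unannotated loci (newGene entries outside the reference annotation) made up 10.6% to 13.2% of them.

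In a ripe grain, abscisic acid and transcription factors such as VP1 keep maturation genes on and hold the embryo dormant. When dormancy ends, the embryo sends gibberellin to the aleurone, the living outer layer of the endosperm, which secretes amylases, proteases and glucanases that dissolve the stored reserves. Pre-harvest sprouting is this change while the grain is still on the spike. Whole spikes hold grain, chaff and rachis together, so fewer cells of one type and less RNA per cell cannot be told apart in these libraries.

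The labelled tissue was checked against its markers. Summed over 6 embryo and aleurone marker genes, the level was 41700 to 43800 CPM (counts scaled to a common library size by TMM) in Shengsimai and 15900 to 18900 CPM in Zhoumai18 at 48 h. Nearly all of this came from 2 globulin genes that are described below as a result, so the sum is no separate evidence. The other 4 markers summed to 206 to 221 CPM in Shengsimai and 33.1 to 36.8 CPM in Zhoumai18, almost wholly from EM and Vp-1A, which are also described below as results. The 4 starchy endosperm markers summed to 7.66 to 9.18 CPM in Shengsimai and 13.2 to 19.0 CPM in Zhoumai18, and 1 of them, a puroindoline b gene, had 0 counts in all 6 libraries. Markers of green chaff (3 genes) and of the anther (2 genes) stayed under 0.71 CPM in every library and were too low to be tested. Embryo and aleurone transcripts were thus present in all 6 libraries, while the markers of starchy endosperm, chaff and anther were low or absent. The part that tissue make-up plays in the differences below was not tested.

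At 48 h, 36245 of the 53348 genes differed between the varieties at an adjusted p under 0.05 (edgeR's quasi-likelihood test, Benjamini-Hochberg adjustment), which is 67.9% of all genes tested. Of these, 17607 were higher in Shengsimai (33.0% of all tested) and 18638 were lower (34.9%), and the median log2 fold change over all tested genes was 0.00. The split moved with the scaling, to 15070 higher and 20880 lower with library totals alone and to 18632 and 18117 with DESeq2. Of the called genes 14278 differed by at least 2-fold, 5782 of them higher and 8496 lower. The 3 Shengsimai libraries lay wholly above the 3 Zhoumai18 libraries for 35.5% of the genes and wholly below them for 36.8%, so the groups did not overlap for 72.3%. With so large a background, a list of genes is read here by the size and direction of its members' differences and not by how many passed. Among the tested genes, 40330 reached 1 FPKM in all 6 libraries, while 3482 did so in the 3 Shengsimai libraries alone and 5060 in the 3 Zhoumai18 libraries alone. The last groups passed the filter through the variety in which they were high, so a difference in them had to follow. The number of such members is given below beside each list of genes by function that holds any. It was not counted for the named genes as a whole or for the region of chromosome 3D described below.

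**Figure D1:**
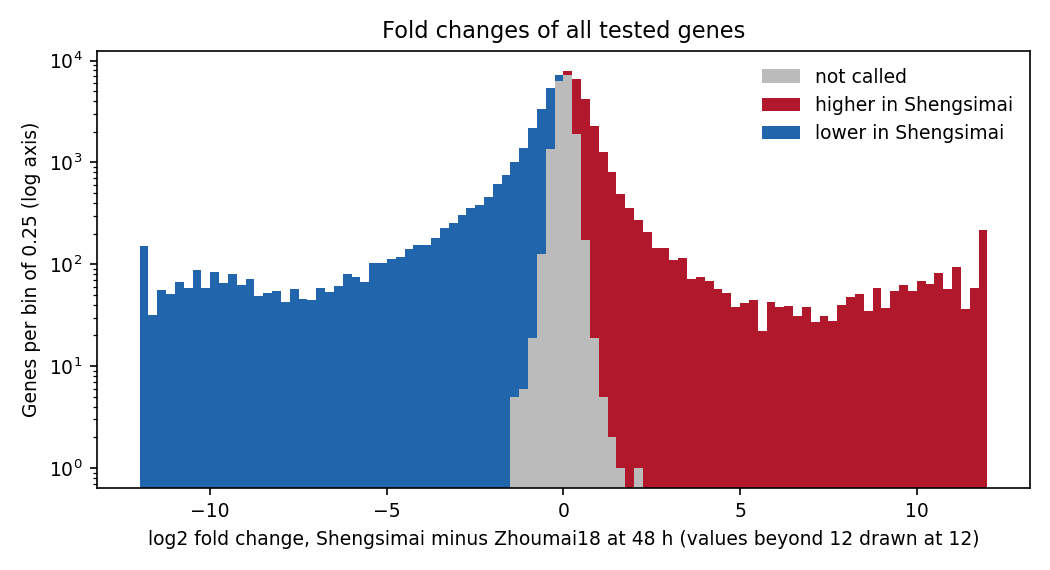
Histogram of the log2 fold change (x axis, Shengsimai minus Zhoumai18 at 48 h) of all 53348 tested genes, in bins of 0.25, with the number of genes on a log axis (y). Red bars are the 17607 genes called higher in Shengsimai, blue bars the 18638 called lower, and grey bars the genes not called. Grey bars lie mostly near 0, and the called genes form tails on both sides.

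A gene name was given for 239 of the tested genes, from the closest protein match in the deposited table. Of these, 59 were higher in Shengsimai (24.7%), 134 were lower (56.1%) and 46 were not called, with a median log2 fold change of -0.42. Named genes leaned further towards Zhoumai18 than the whole set did. Among all tested genes, 5060 passed the filter in Zhoumai18 alone and 3482 in Shengsimai alone. Such members were not counted among the named genes, so the part of the filter in this lean was not tested. A name taken from a protein match can point to another member of the same family, and reads that fit near-identical copies, such as those of the A, B and D genomes, may have been shared out between them by a rule that is not given.

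Vp-1A, EmBP-1a and EM, which take part in abscisic acid response, were each higher in Shengsimai, although the lists they belong to went both ways. Of 4 tested genes on the list of abscisic acid and dormancy, 1 was higher (Vp-1A), 2 were lower and 1 was not called (median log2 fold change -0.28). Vp-1A (TraesCS3A01G417300) encodes a VP1 transcription factor that acts in abscisic acid response and keeps maturation genes on. Its level was 50.3, 57.9 and 55.4 CPM in the 3 Shengsimai libraries and 19.0, 17.4 and 17.5 CPM in the 3 Zhoumai18 libraries. The groups did not overlap, and the level was 3.03-fold higher in Shengsimai (log2 fold change 1.60, SE 0.067, adjusted p = 2.6e-18). EmBP-1a (TraesCS5B01G470600) encodes a bZIP factor known to bind the abscisic acid response element of the Em gene. It reached 14.1, 13.8 and 15.2 CPM in Shengsimai against 4.47, 4.13 and 3.41 CPM in Zhoumai18, a log2 fold change of 1.85 (SE 0.097, adjusted p = 4.2e-16). EM itself (TraesCS1B01G237500), a late embryogenesis protein that protects drying embryos, showed the widest gap of this group. Its levels were 155, 162 and 165 CPM in Shengsimai and 13.6, 11.6 and 11.8 CPM in Zhoumai18, which is 13.0-fold (log2 fold change 3.71, SE 0.21, adjusted p = 3.0e-15). EmBP-1a was put with this group after its values were seen. It came from a list of abscisic acid partners, also formed then, with 3 tested genes. Of these, 1 was higher and 2 were lower in Shengsimai (median log2 fold change -0.29).

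Storage globulins of embryo and aleurone were the most abundant named transcripts in both varieties. The first Glo-3A copy (TraesCS4A01G296000) stood at 21600, 22200 and 22200 CPM in Shengsimai and at 9700, 8690 and 8220 CPM in Zhoumai18. The neighbouring copy (TraesCS4A01G296100) stood at 19900, 20800 and 21300 CPM against 9190, 8160 and 7600 CPM. Both copies were 2.48-fold higher in Shengsimai (log2 fold change 1.31 for each, adjusted p = 4.8e-14 and 7.6e-14). PER1 (TraesCS2B01G174400), a 1-Cys peroxiredoxin that protects embryo and aleurone from oxidation, was at 285, 276 and 272 CPM in Shengsimai and at 159, 146 and 137 CPM in Zhoumai18. Its log2 fold change was 0.92 (SE 0.079, adjusted p = 3.0e-11). HSD11BL (TraesCS5B01G559400) matched a hydroxysteroid dehydrogenase, a family that in plants includes the steroleosins of oil bodies. Its levels were 246, 247 and 244 CPM in Shengsimai and 72.9, 70.2 and 65.3 CPM in Zhoumai18 (log2 fold change 1.82, SE 0.056, adjusted p = 2.6e-21).

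Not every maturation or storage gene had this direction. Of the 4 tested genes on the list of desiccation genes, 2 were higher (EM and PER1) and 2 were lower in Shengsimai. One of the lower genes, WCOR410, passed the filter only in Zhoumai18. WCOR410 (TraesCS6D01G234700), a dehydrin first described in cold-treated wheat, was at 0.329, 0.311 and 0.396 CPM against 3.68, 3.54 and 3.07 CPM in Zhoumai18. Among 7 tested storage protein genes, 4 were higher and 3 lower, of which 2 passed the filter in Shengsimai alone and 2 in Zhoumai18 alone. The 4 higher genes were both globulins and 2 gliadin genes on chromosome 1B (TraesCS1B01G010400 and TraesCS1B01G011000). These gliadin genes lie in a long stretch of 1B, described below, in which nearly all genes were higher in Shengsimai. The 3 lower genes were a low molecular weight glutenin and the avenin-like genes avnla and avnlb. GluD3-3 (TraesCS1D01G000300), the glutenin gene, had 4.40, 4.08 and 4.53 CPM in Shengsimai and 19.0, 13.2 and 15.1 CPM in Zhoumai18 (log2 fold change -1.86, SE 0.19, adjusted p = 7.6e-10). These 3 genes, which like the gliadins are expressed in the endosperm, stayed at or under 19.0 CPM in every library.

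**Figure D2:**
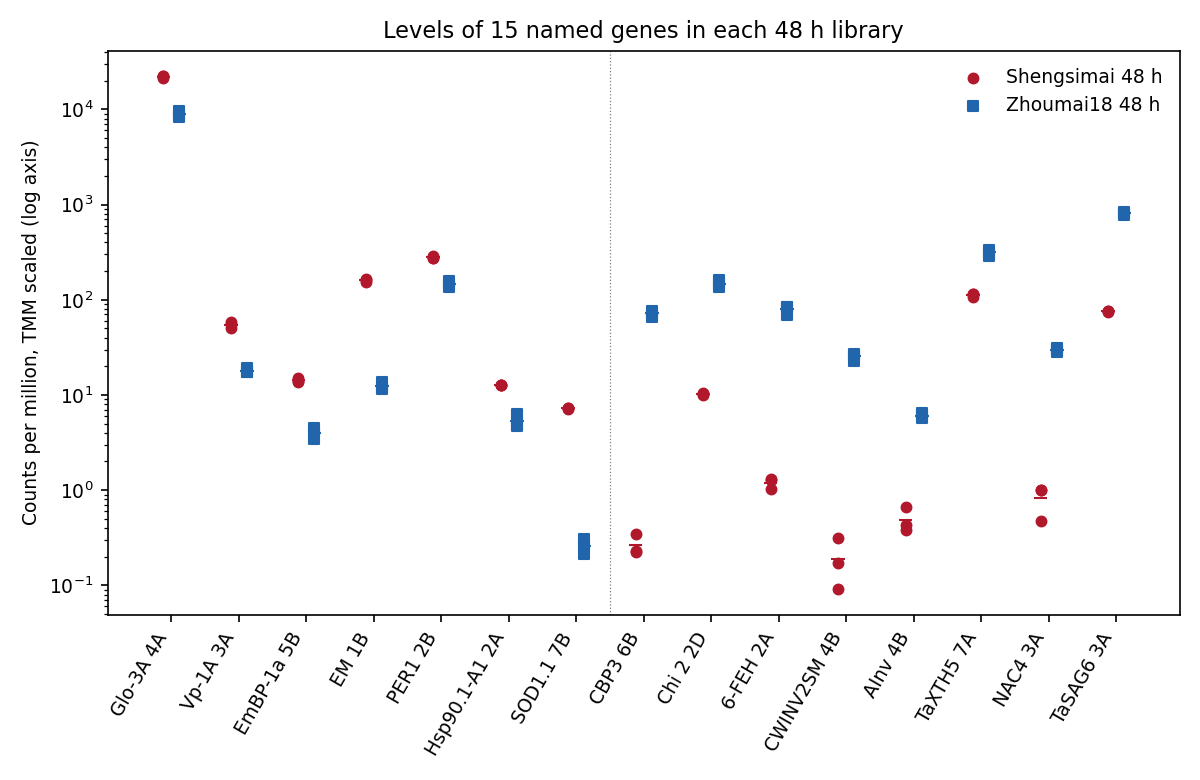
Levels of 15 named genes (x axis, with the chromosome after each name) in CPM on a log axis (y), for each of the 3 Shengsimai libraries (red circles) and the 3 Zhoumai18 libraries (blue squares) at 48 h, with short lines at the group means. Left of the dotted line, Shengsimai lies above Zhoumai18 for all 7 genes. Right of it, all 8 genes are higher in Zhoumai18, from TaXTH5 at 2.78-fold to CBP3 at 269-fold.

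Other genes of the abscisic acid list differed little. SnRK2.4 stands for a kinase of the family that carries the abscisic acid signal, and its copies on 3A and 3B were slightly lower in Shengsimai (log2 fold change -0.47 and -0.58, adjusted p = 2.6e-04 and 2.5e-06). TaABI1 (TraesCS3A01G209200) was at 23.0, 22.7 and 27.7 CPM in Shengsimai and 28.4, 25.1 and 24.9 CPM in Zhoumai18. These groups overlapped and the gene did not pass the test (adjusted p = 0.26), although it did with library totals alone, with limma on FPKM and without the third Shengsimai library (log2 fold change -0.19 and adjusted p = 0.029 in the last). The 2 tested genes of heat shock protein 90, a chaperone, were both higher in Shengsimai. Hsp90.1-A1 (TraesCS2A01G033700) had 12.6, 12.6 and 12.7 CPM against 4.77, 4.84 and 6.24 CPM (log2 fold change 1.26, SE 0.11, adjusted p = 4.5e-11). The tocopherol genes, a group added after its values were seen, had 3 tested members. Both copies of HGGT, which makes tocotrienols, were higher, with log2 fold changes of 1.10 on 7D and 0.73 on 7A. VTE2-1 (TraesCS7B01G401900) was at 3.77, 4.36 and 3.63 CPM against 2.32, 2.69 and 3.92 CPM, which overlapped, and its call (log2 fold change 0.40, adjusted p = 0.038) was lost under 8 alternatives (log2 fold change 0.23 to 0.42), with an adjusted p of 0.22 without the first Zhoumai18 library.

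The 4 tested hydrolases that mobilise reserves were lower in Shengsimai. CBP3 passed the filter in Zhoumai18 alone, which fixed its direction, and AMY4 and Glc2 lost their calls under alternatives given below. CBP3 (TraesCS6B01G050700) encodes serine carboxypeptidase III, which the aleurone secretes to break down storage proteins. It was nearly silent in Shengsimai at 0.225, 0.348 and 0.227 CPM and reached 77.0, 66.5 and 73.1 CPM in Zhoumai18. This is a 269-fold difference (log2 fold change -8.07, SE 0.13, adjusted p = 2.6e-27), and Baipimai stood between them with a mean of 50.1 CPM. Glc1 (TraesCS4A01G175900), placed on this list by its glucanase symbol, was at 5.38, 5.42 and 5.68 CPM against 35.3, 34.7 and 36.0 CPM (log2 fold change -2.68, SE 0.11, adjusted p = 6.9e-19). The other members differed little.

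AMY4 (TraesCS2B01G306400), the alpha-amylase gene of the list, was at 6.16, 6.12 and 6.55 CPM in Shengsimai and 7.42, 7.91 and 7.44 CPM in Zhoumai18. The log2 fold change of -0.27 (SE 0.098, adjusted p = 0.015) lost the call without the second Zhoumai18 library (adjusted p = 0.057) and without the filter on low values (adjusted p = 0.055). Glc2 (TraesCS7A01G378100) was lower by a log2 fold change of -0.42, which fell to -0.20 (adjusted p = 0.20) without the third Zhoumai18 library. No gene of the gibberellin list passed the filter. GA20ox1 on 4A (TraesCS4A01G319100), which makes gibberellin precursors, was at 0.0692, 0.0733 and 0.151 CPM in Shengsimai and at 0.287, 0.364 and 0.394 CPM in Zhoumai18. These levels were too low to be tested.

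Enzymes that split sucrose and fructan showed some of the widest gaps, but this group was formed after its values were seen and all 3 tested members passed the filter in Zhoumai18 alone, so their direction was fixed. The gene for fructan 6-exohydrolase, 6-FEH (TraesCS2A01G588300), was at 1.30, 1.04 and 1.27 CPM in Shengsimai against 84.7, 84.3 and 69.6 CPM in Zhoumai18. That is 66.0-fold lower (log2 fold change -6.04, SE 0.16, adjusted p = 6.4e-23). CWINV2SM (TraesCS4B01G356800), matched to a cell wall invertase, was at 0.312, 0.0916 and 0.170 CPM against 26.9, 26.5 and 23.0 CPM (log2 fold change -7.02, SE 0.21, adjusted p = 1.5e-21). The acid invertase AInv (TraesCS4B01G093500) was at 0.381, 0.659 and 0.434 CPM against 6.40, 5.69 and 6.13 CPM (log2 fold change -3.62, SE 0.19, adjusted p = 5.8e-16). In all 3 genes every Zhoumai18 library lay at least an order of magnitude above the Shengsimai mean. Starch synthesis genes were split instead, with 1 of 3 (Sbe1A) passing the filter in Zhoumai18 alone. Sbe1A (TraesCS7A01G549100), a starch branching enzyme, was lower at 1.56, 2.03 and 1.85 CPM against 6.0, 6.47 and 7.01 CPM. Sbe2 (TraesCS2A01G293400), another branching enzyme, and wSs2a-1 (TraesCS7D01G190100), a starch synthase, were slightly higher (log2 fold change 0.30 and 0.58, adjusted p = 6.6e-04 and 3.7e-05).

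Genes of growth differed in both directions, with 6 of 10 tested members lower in Shengsimai, 3 higher and 1 not called. Of the 6 lower members, 4 passed the filter in Zhoumai18 alone, and among the 6 members that passed in all libraries 3 were higher and 2 lower. TaXTH5 (TraesCS7A01G427600) encodes a xyloglucan endotransglycosylase that loosens growing walls. It was at 115, 116 and 108 CPM in Shengsimai and 333, 321 and 291 CPM in Zhoumai18 (log2 fold change -1.48, SE 0.11, adjusted p = 6.9e-13). TaXTH4 on 6A (TraesCS6A01G408300) was at 7.34, 7.40 and 7.76 CPM against 32.1, 33.9 and 31.9 CPM (log2 fold change -2.12, SE 0.17, adjusted p = 6.8e-12). The other lower members were 4 histone H2A genes, all near or under 2 CPM. The 3 higher members were copies of the alpha-tubulin gene TUBA-4B on 5A, 5B and 5D, with log2 fold changes of 0.34, 0.57 and 0.46.

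Of 5 defence genes that passed the filter 4 were lower in Shengsimai, but 3 of these passed in Zhoumai18 alone and had to be lower. The fourth, Chi 2, is the only lower one that passed in all 6 libraries. Chi 2 (TraesCS2D01G033100), a chitinase, was at 10.1, 10.4 and 10.2 CPM in Shengsimai and at 162, 146 and 137 CPM in Zhoumai18 (log2 fold change -3.86, SE 0.094, adjusted p = 1.8e-23). TaGlu1d (TraesCSU01G036600), placed on this list by its symbol, had 13 counts in Shengsimai, all in the second library, against 118, 126 and 166 CPM in Zhoumai18. PR5 (TraesCS7D01G551400), a thaumatin-like protein, was at 0.0346, 0 and 0.132 CPM against 3.41, 2.47 and 2.66 CPM. Chi 3 (TraesCS3A01G260200) was the exception, with overlapping groups at 13.4, 19.4 and 12.7 CPM and at 16.9, 16.1 and 13.9 CPM (adjusted p = 0.81). Peroxidase and oxalate oxidase genes, grouped after their values were seen, were lower in 4 of 4 tested members, all of which passed the filter in Zhoumai18 alone. The peroxidase gene prx (TraesCS2A01G573900) had a mean of 0.0244 CPM in Shengsimai and 5.26 CPM in Zhoumai18.

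Transcription factors with a NAC, WRKY or CBF symbol, a group formed after its values were seen, numbered 20 in the table, and 7 were tested. All 7 were lower in Shengsimai, as were 34.9% of all tested genes. Of the 7, 3 passed the filter in Zhoumai18 alone and 3 in all 6 libraries. NAC4 (TraesCS3A01G339600) was at 1.0, 1.01 and 0.472 CPM in Shengsimai and 30, 31.5 and 28.3 CPM in Zhoumai18 (log2 fold change -5.16, SE 0.25, adjusted p = 9.5e-17). NAC7 (TraesCS7B01G365300) had 0 counts in the 3 Shengsimai libraries and 2.99, 2.45 and 2.34 CPM in Zhoumai18. It was at least 143-fold lower, taking 3 counts in all as the most that Shengsimai could hold. CBF6 (TraesCS5A01G312000), of a family that acts in cold response, was at 0.571, 0.897 and 0.623 CPM against 14.7, 12.7 and 13.4 CPM. The smallest of these differences, NAC2D on 5D (log2 fold change -0.17, adjusted p = 0.027), lost its call under DESeq2 (adjusted p = 0.057) and without some single libraries (adjusted p up to 0.11 without the first Zhoumai18 library).

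The following groups were also formed after their values were seen. TaSAG6 (TraesCS3A01G113900), named as a senescence-associated gene, was among the 10 most abundant named transcripts of Zhoumai18 by FPKM. It was at 73.7, 77.0 and 76.1 CPM in Shengsimai and 817, 831 and 777 CPM in Zhoumai18 (log2 fold change -3.42, SE 0.067, adjusted p = 1.7e-25). Both TaSAG2 copies were lower too (log2 fold change -0.95 and -1.20), while TaSAG1 was higher (0.97). The xylanase inhibitor taxi-I (TraesCS3B01G514800) was at 190, 196 and 201 CPM against 563, 549 and 467 CPM (log2 fold change -1.43, SE 0.087, adjusted p = 1.3e-14). Together with an amylase and trypsin inhibitor (ATI) and 3 serpins, 5 of 5 tested inhibitor genes were lower, but 3 of them passed the filter in Zhoumai18 alone. SOD1.1 (TraesCS7B01G197300), matched to a superoxide dismutase, went the other way at 7.11, 7.34 and 7.29 CPM in Shengsimai against 0.211, 0.309 and 0.262 CPM (log2 fold change 4.78, SE 0.17, adjusted p = 4.2e-20). UES (TraesCS5B01G478200), a gene of unstated role, was at 1000, 1000 and 1040 CPM against 277, 213 and 206 CPM and was the most abundant named transcript of Shengsimai after the globulins by FPKM.

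Genes of grain colour and of photosynthesis were below the filter. TraesCS3D01G468400, annotated in the study as the 3D copy of Tamyb10, a MYB factor that controls red grain pigment, had 0 counts in all 6 libraries. A count of 0 over a variety's 3 libraries allows a level of up to 0.0181 CPM in Shengsimai and 0.0187 CPM in Zhoumai18, for counting error only. Tamyb10-B1 had 0 counts too, and a gene each for chalcone synthase (CHS) and dihydroflavonol reductase (DFR) had at most 0.0562 CPM in any library. Of 136 photosynthesis genes in the table, 52 had a count in these libraries and none was tested.

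The QSS.TAF9-3D region is a stretch of chromosome 3D that the study linked to sprouting resistance. The study set it by physical position and gave another number of genes for it. Taken here by a range of identifiers, the region held 52 genes of the table. Of these, 33 had counts at 48 h and 14 were tested. In Shengsimai 6 were higher and 8 lower, against 33.0% and 34.9% of all tested genes. Members with at most 2 counts in 1 variety passed the filter through the other variety alone, which fixed their direction. TraesCS3D01G468500, annotated in the study as a TAF9 gene (a subunit of the general transcription factor TFIID), separated the varieties almost fully. It was at 25.8, 24.5 and 24.0 CPM in Shengsimai and at 0, 0 and 0.0375 CPM in Zhoumai18, where all 3 libraries held 2 counts in total. The ratio was 1990 (95% exact counting interval 551 to 16400), and Baipimai, the other resistant variety, had a mean of 0.0589 CPM. TraesCS3D01G466100, annotated there as a RING-type ubiquitin ligase gene, differed far less at 45.4, 43.9 and 40.5 CPM against 27.3, 29.1 and 30.6 CPM (log2 fold change 0.58, SE 0.078, adjusted p = 1.8e-07).

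Between these lies a group of neighbours with the opposite sign, the widest by level being TraesCS3D01G467600, which carries no name. Its levels were 35.7, 36.3 and 40.1 CPM in Shengsimai and 1020, 990 and 852 CPM in Zhoumai18 (log2 fold change -4.67, SE 0.11, adjusted p = 5.2e-24). TraesCS3D01G467300 followed at 131, 130 and 144 CPM against 639, 589 and 505 CPM (log2 fold change -2.10, SE 0.090, adjusted p = 4.3e-18). TraesCS3D01G467700 had 1 count in Shengsimai and 25.6, 29.1 and 22.4 CPM in Zhoumai18, and TraesCS3D01G467800 and TraesCS3D01G467900 had 0 counts in Shengsimai. Of the 6 neighbouring tested genes from TraesCS3D01G467300 to TraesCS3D01G467900, every one was lower in Shengsimai with no overlap of the libraries. Of all tested genes, 36.8% lay wholly below in this way. TraesCS3D01G467700, TraesCS3D01G467800 and TraesCS3D01G467900 passed the filter in Zhoumai18 alone, which fixed their direction. Over all 14 tested genes of the region, Shengsimai was higher for 8 and lower for 1 before incubation. Of all tested genes, 33.3% were higher and 30.7% lower at that time. By 96 h Shengsimai was higher for 9 of the 14 and lower for 2, against 41.0% and 40.6% of all tested genes. Among the 6 neighbours, TraesCS3D01G467300 had log2 differences of 0.79 at 0 h and 2.08 at 96 h, and TraesCS3D01G467500 of 0.65 and 2.66. TraesCS3D01G467800 had 0 counts in both varieties at both of these times. The smallest difference in the region, TraesCS3D01G465900 (log2 fold change -0.21, adjusted p = 0.036), lost its call with the size factors of DESeq2 (adjusted p = 0.064) and without some single libraries (adjusted p up to 0.11 without the third Zhoumai18 library).

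**Figure D3:**
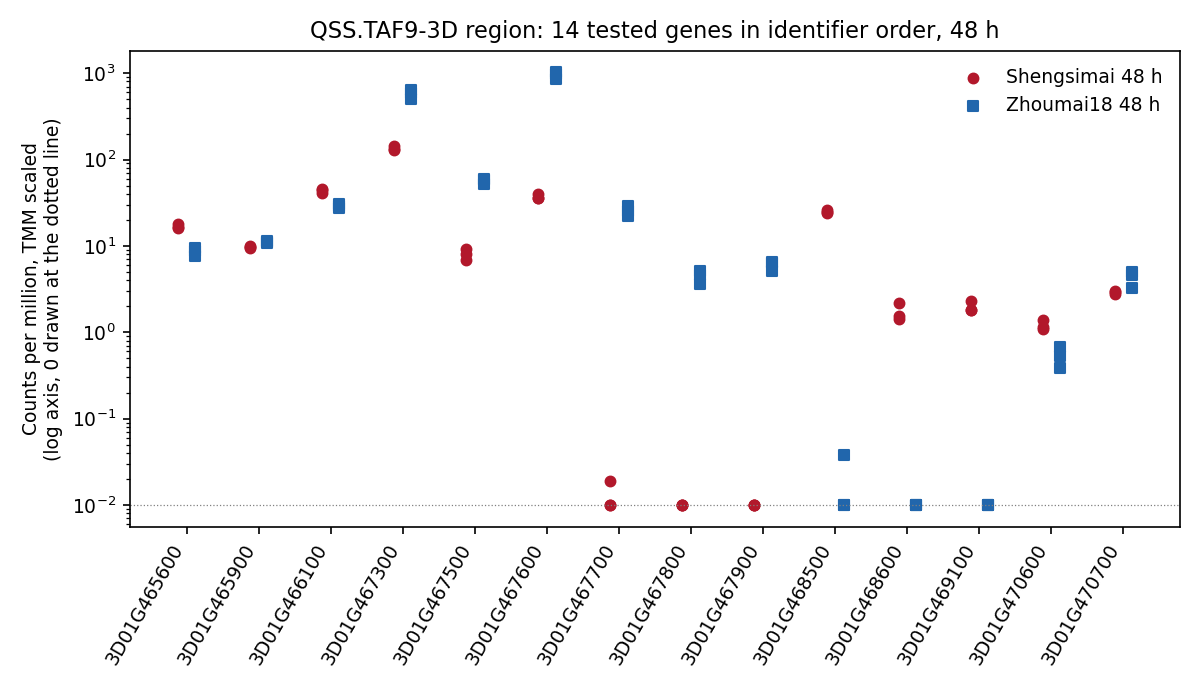
Levels of the 14 tested genes of the QSS.TAF9-3D region (x axis, in identifier order, prefix TraesCS left out) in CPM on a log axis (y) for each Shengsimai (red circles) and Zhoumai18 (blue squares) library at 48 h, with 0 drawn at the dotted line. TraesCS3D01G468500, TraesCS3D01G468600 and TraesCS3D01G469100 have levels in Shengsimai and at most 2 counts in Zhoumai18, while the 6 genes from TraesCS3D01G467300 to TraesCS3D01G467900 lie higher in Zhoumai18.

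Along the chromosomes the differences were spread widely, with a long exception on 1B. On 20 of the 21 chromosomes, 26.1% to 33.1% of the tested genes were higher in Shengsimai and 36.2% to 42.3% were lower, against 46.1% and 30.4% on 1B. When tested genes were taken in blocks of 50 by identifier, the first 9 blocks of 1B, from TraesCS1B01G000800 to TraesCS1B01G148400, held the excess. Of these 450 genes 423 were higher in Shengsimai (94.0%) and 17 were lower, with a median log2 fold change of 3.09. In 57 of them Zhoumai18 had 0 counts and in 2 Shengsimai did, and with these genes set at the bound that 3 counts allow the median was 3.09 as well. Outside this stretch, 1B had 30.9% higher and 38.8% lower. A weaker lean was found on 5B, where 103 of 150 genes from TraesCS5B01G310700 to TraesCS5B01G360200 were higher and 29 lower, with medians of 1.05, 0.92 and 0.98 at 0, 48 and 96 h. Outside the stretches named here and below, single blocks of 36 or 50 genes on 2B, 3D, 5A and 6A had up to 66.7% of their genes higher, and others of 50 genes had up to 76.0% lower. Shorter blocks at chromosome ends were not taken as stretches. Among them were the last 19 tested genes of 6B, from TraesCS6B01G468200 to TraesCS6B01G473900, of which 17 were lower (89.5%), with medians of -2.11, -1.14 and -2.13 at 0, 48 and 96 h. All stretches were chosen after the blocks were seen, so their values are a description.

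Summed over the 450 genes, the level on 1B was 8185, 8258 and 7959 CPM in Shengsimai at 48 h and 1809, 1808 and 1809 CPM in Zhoumai18. The gap was there at the other times, with 12770, 12970 and 12850 CPM against 2678, 2688 and 2688 CPM at 0 h and with medians of 2.93 on the log2 scale at 0 h and at 96 h. Baipimai had 7645, 7853 and 7339 CPM at 48 h, close to Shengsimai. Zhoumai18 was thus the variety that stood apart in this stretch, in all of its libraries. Genes of general function took part. GPI (TraesCS1B01G053600), a glycolytic isomerase, was at 117, 110 and 101 CPM in Shengsimai and 12.7, 12 and 12 CPM in Zhoumai18 (log2 fold change 3.16, SE 0.081, adjusted p = 6.0e-23).

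For 1 gene of the stretch, chosen after its values were seen, the copies on the sister chromosomes went the other way. The protein disulfide isomerase gene pdil4-1, which folds secreted proteins, was higher in Shengsimai on 1B (TraesCS1B01G126100, log2 fold change 1.52) and lower on 1A and 1D (TraesCS1A01G097700 and TraesCS1D01G106500, -1.04 and -0.44). A TFIID gene just beyond the stretch (TraesCS1B01G151700), chosen after its values were seen, was at 31.6, 32.6 and 35.1 CPM in Shengsimai and at 2.87, 3.33 and 2.59 CPM in Zhoumai18. In Baipimai its mean was 0.0678 CPM. Its copy on 1A (TraesCS1A01G139600) was at 9.19, 8.79 and 9.01 CPM against 7.84, 7.74 and 7.05 CPM, a log2 fold change of 0.25 that did not pass with library totals alone (adjusted p = 0.14), with limma on FPKM, or without some single libraries (adjusted p up to 0.11 without the third Zhoumai18 library).

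The end of 1D behaved differently over time. Of 50 genes from TraesCS1D01G435700 to TraesCS1D01G450900, 48 were higher in Shengsimai at 48 h (median log2 fold change 2.61) and 47 at 96 h, but 18 at 0 h (median 0.08). In Zhoumai18 the sum over these genes was 934.0, 938.7 and 963.7 CPM before incubation. It was 213.5, 226.9 and 224.3 CPM at 48 h, and 189.0, 180.6 and 187.4 CPM at 96 h. In Shengsimai it was 1150, 1121 and 1114 CPM at 0 h and 1036, 1074 and 1051 CPM at 48 h. The reverse held for 200 genes of 2D from TraesCS2D01G467700 to TraesCS2D01G533900. These summed to 2147, 2078 and 2155 CPM in Zhoumai18 at 0 h and to 4052, 3729 and 3687 CPM at 48 h, against 3898, 3848 and 4138 CPM in Shengsimai at 48 h. The 3 Zhoumai18 libraries of a time were alike in both stretches, and the times differed from each other. Whether the Zhoumai18 spikes frozen at 0 h and those frozen at 48 and 96 h were of one genotype was not tested. Every change from 0 to 48 h given here carries this limit. The 48 h differences hold for the Zhoumai18 spikes frozen at that time, and may not hold for the variety at large.

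**Figure D4:**
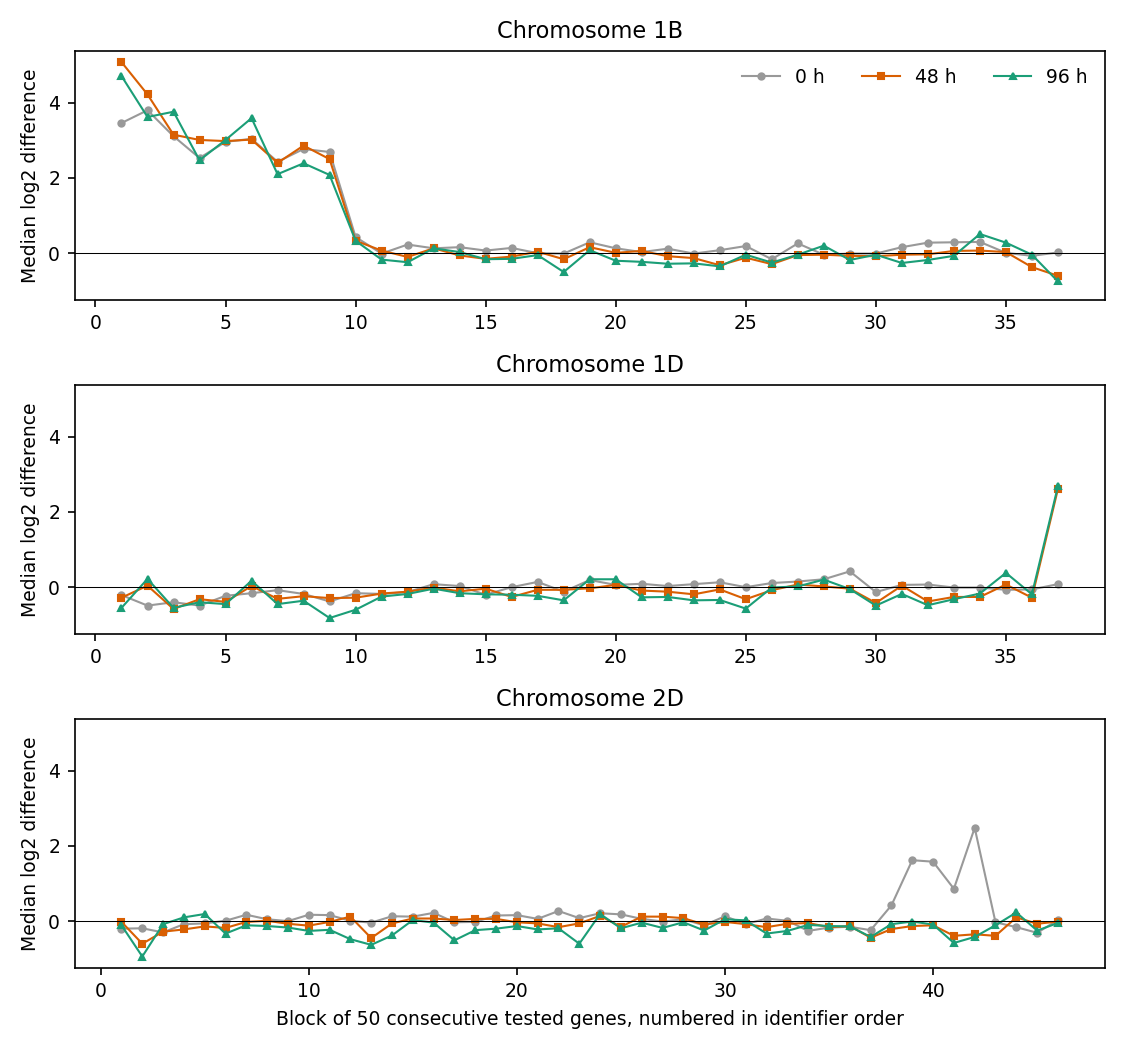
Median log2 difference between Shengsimai and Zhoumai18 (y axis) in blocks of 50 consecutive tested genes numbered in identifier order (x axis) along chromosomes 1B, 1D and 2D, at 0 h (grey circles), 48 h (orange squares) and 96 h (green triangles). The first 9 blocks of 1B are raised at all 3 times, the last block of 1D at 48 h and 96 h, and 4 neighbouring blocks of 2D at 0 h.

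Some genes had counts in only 1 variety at 48 h, defined as at most 3 counts over the 3 libraries of one and at least 100 over those of the other. There were 1873 such genes for Shengsimai and 2098 for Zhoumai18, of which 1050 and 1103 were among the tested genes (1.97% and 2.07%). Most of them were unannotated loci, 1302 of the 1873 and 1336 of the 2098. Chromosome 1B held 154 of those with counts in Shengsimai alone, more than any other chromosome, and 75 of its tested ones lay in the stretch at its start. At 0 h, 297 of the 1873 genes had at least 100 counts in Zhoumai18, and at 96 h 8 did. Of the 2098 genes, 9 had at least 100 counts in Shengsimai at 0 h and 91 at 96 h.

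In 2 places, 5 or more neighbouring tested genes had counts in Zhoumai18 alone. On 3D, the 6 genes from TraesCS3D01G453800 to TraesCS3D01G455400 held 4374 counts in Zhoumai18 at 48 h, 4545 at 0 h and 4670 at 96 h, and 0 in Shengsimai at every time. Baipimai held 4406 at 48 h. On 2D, the 5 genes from TraesCS2D01G029600 to TraesCS2D01G030000 held 4173 counts in Zhoumai18 at 48 h but 6 at 0 h, and 0 in Shengsimai at both times. The first run was thus a constant difference between the varieties, while the second had hardly any counts before incubation, and Shengsimai held 325 in it at 96 h. Without the third Zhoumai18 library the rule found 4 runs in place of 2. Unannotated loci as a whole leaned towards Shengsimai, with 5009 of 10577 higher (47.4%) and 2526 lower (23.9%), against 29.4% and 37.7% of the 42253 genes placed on a chromosome.

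The last comparison asked which differences were there before incubation. The varieties share no libraries between times, so the 48 h and 0 h results are separate measurements. They are of different spikes, and for Zhoumai18 a change over time and a difference between the spikes used at each time cannot be told apart. Of the 36245 genes called at 48 h, 17424 were called in the same direction at 0 h, 7232 in the opposite direction, and 11589 were not called at 0 h. At 96 h, 26895 were called in the same direction and 4252 in the opposite one. In all, 13877 genes kept their direction at the 3 times, 7003 of them higher and 6874 lower in Shengsimai. As background, 64.0% of the 53348 genes were called at 0 h (33.3% higher and 30.7% lower in Shengsimai) and 81.6% at 96 h (41.0% higher and 40.6% lower).

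The change of the difference itself, tested as an interaction of variety and time, was called for 30251 genes (56.7% of those tested). It was upward in Shengsimai relative to Zhoumai18 for 14322 (26.8%) and downward for 15929 (29.9%). This split depends on the scaling. Without the genes of the stretches 29196 were called. With library totals alone 20804 rose and 10415 fell, and the median over all genes moved from -0.02 to 0.26 on the log2 scale. For 7907 of the genes called at 48 h there was no call at 0 h and a called change in the same direction, 4038 higher and 3869 lower. The filter used the 48 h libraries alone, so genes that had fallen below it by 48 h could not enter.

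The lists changed in both directions, with 2 desiccation genes moving up and 2 down in the difference, and 2 abscisic acid genes up and 1 down. For Vp-1A and EM the difference widened from 0 to 48 h, while the scaled levels were lower at 48 h in both varieties. Changes within a variety were not tested, and its levels at different times depend on the scaling. The TMM factors of Shengsimai were 0.7096 to 0.7303 at 0 h and 1.058 to 1.064 at 48 h. Vp-1A was at means of 83.2 CPM in Shengsimai and 59.7 CPM in Zhoumai18 at 0 h, and its difference grew by 1.12 on the log2 scale (SE 0.092, adjusted p = 3.0e-11). EM was at 1390 CPM and 493 CPM at 0 h, and its difference grew by 2.21 (SE 0.27, adjusted p = 6.6e-08). At 96 h EM stood at 162 CPM in Shengsimai and 0.129 CPM in Zhoumai18. PER1 rose in level rather than falling, from 92.8 CPM to 278 CPM in Shengsimai and from 106 CPM to 147 CPM in Zhoumai18 (change of the difference 1.10, SE 0.11, adjusted p = 2.2e-09). The globulins differed from these, since both copies already stood apart at 0 h (log2 difference 1.65 and 1.70) and at 48 h the difference was 1.31 for each. This change was not called with library totals alone (-0.05, adjusted p = 0.71, and -0.10, adjusted p = 0.46) or with limma on FPKM (adjusted p = 0.48 to 0.70).

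Genes that were lower in Shengsimai differed in their course. CBP3 was already at 403 CPM in Zhoumai18 at 0 h against 0.467 CPM in Shengsimai, dropped to a mean of 72.2 CPM at 48 h and stood at 1260 CPM at 96 h. Its difference at 48 h was therefore the smallest of the 3 times. TaSAG6 was alike at 0 h, with 429 CPM in Shengsimai and 449 CPM in Zhoumai18 (adjusted p = 0.34), and parted by 48 h (change of the difference -3.35, SE 0.089, adjusted p = 5.0e-22). 6-FEH and NAC4 were high only in Zhoumai18 at 48 h, since at 96 h Zhoumai18 was back at 6.18 CPM and 1.64 CPM. In the QSS.TAF9-3D region, TraesCS3D01G467600 had the same course in Zhoumai18, with means of 110, 954 and 40.1 CPM over the 3 times. TraesCS3D01G468500 was at 52.8 CPM in Shengsimai at 0 h and 0.414 CPM in Zhoumai18, so the varieties stood apart from the start.

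**Figure D5:**
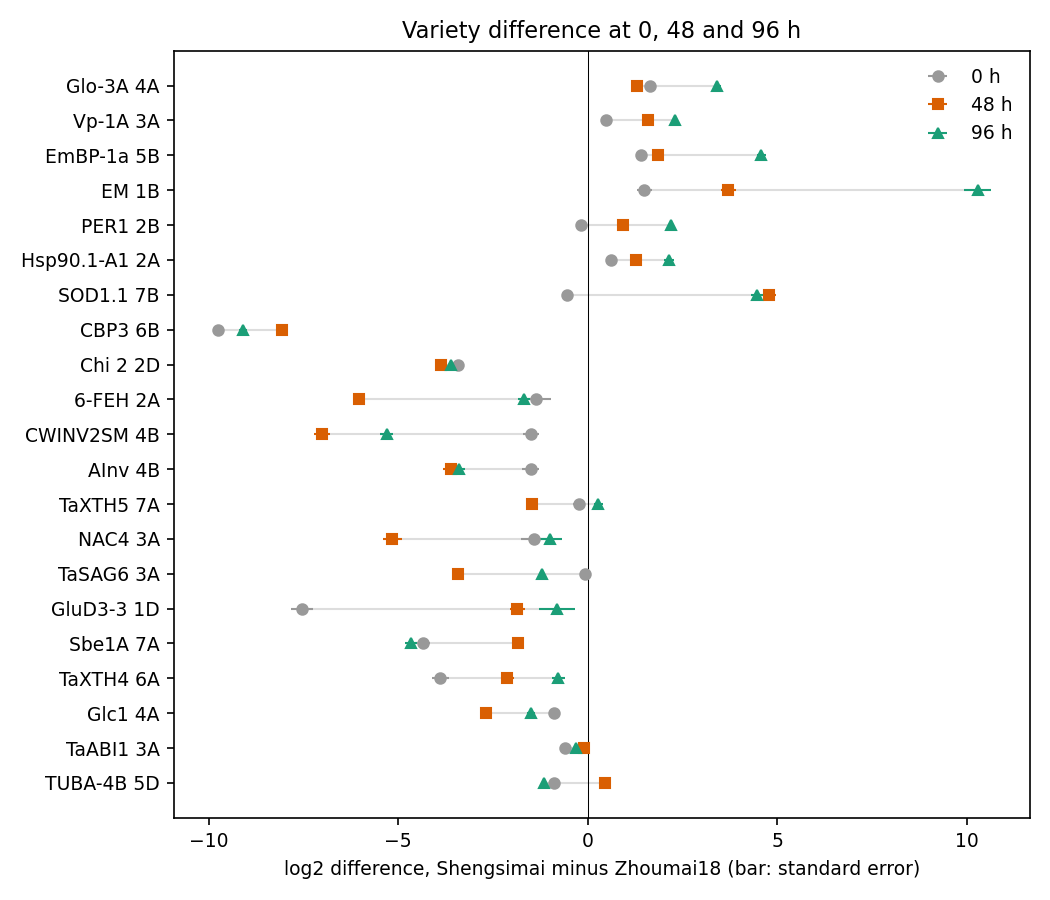
The log2 difference between Shengsimai and Zhoumai18 (x axis, with its standard error as a bar) at 0 h (grey circles), 48 h (orange squares) and 96 h (green triangles) for 21 named genes (y axis, with the chromosome after each name). EM moves to the right with time, at 1.49, 3.71 and 10.28 over the 3 times, CBP3 stays near -8 or below, and 6-FEH, NAC4 and TaSAG6 are farthest to the left at 48 h.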

How the data were processed

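RNA-seq libraries of 3 wheat varieties at 0, 48 and 96 h were made and processed by a sequencing company, with a poly(A) kit that does not mark strand. The aligner, counter and genome build are not given in the sources used here. The deposited table gave unnormalized counts of reads and, beside them, the authors' FPKM (counts divided by gene length and depth) for 153699 genes. One line that could not be parsed was dropped, and the varieties' resistance classes, deposited as words, were not used. Members and gene lists were chosen with earlier results of these data known. Groups came from the deposited labels.

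Counts were fitted with edgeR 4.0.16 (R 4.3.3, quasi-likelihood test, TMM scaling) in one model of 27 libraries with a mean for each of 9 groups. Genes needed 1 FPKM in 3 of the 6 libraries compared, p-values were adjusted by Benjamini-Hochberg over all 53348 genes, and 0.05 was the threshold. CPM were computed from counts and TMM factors. FPKM were used for the filter, for ranking abundance and, in alternatives, with limma 3.58.1 on log2(FPKM + 1) and log2(FPKM + 0.1). DESeq2 1.42.0, other scalings and filters, the replicate number as a block, a 2-fold minimum and leaving out each library were the other alternatives, and leaving out stretches, unannotated loci or genes below 1 FPKM in any of the 6 libraries was added after the data were seen. The fits were tested on simulated data.

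Named are list members with a symbol, the 10 widest called differences per direction among non-overlapping genes of 10 FPKM or more with a name and at most 2 without, the same for the change from 0 to 48 h, the 10 most abundant named genes per variety, genes the study named in its region, and the ends of runs. Others are marked as chosen after their values were seen. Gene names came from the deposited symbols, with older symbols from the RefSeq gene table of IWGSC CS RefSeq v2.1 used for names only.

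Each library was a separate spike, so p-values measure the spread between spikes. Replicates of a group differed by more than sampling noise (chi-square per degree of freedom 3.71 to 9.40), and intervals and floors cover counting error only.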

Additional observations from a re-analysis of the deposited data

Results flagged for a closer look

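The variety difference at 48 h was tested against that at 0 h, and 30251 genes differed in it. Whether the Zhoumai18 spikes frozen at 0 h and those frozen at 48 and 96 h were of one genotype was not tested, and such a difference cannot be told apart from a change over time in any value below. In 5 stretches, chosen after the blocks were seen, 60% or more of the genes changed in one direction. At the end of 1D the median change of the difference was 2.65 on the log2 scale, and on 2D it was -1.92. The other 3, each a block of 50 genes, had medians of -0.86 on 5B from TraesCS5B01G110700, -0.76 on 1A from TraesCS1A01G015300 and -0.64 on 6B from TraesCS6B01G301900.

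Among named genes the difference moved towards Shengsimai for GluD3-3 by 5.67 on the log2 scale, for SOD1.1 by 5.31, for xat1 by 2.46, for TAc23 by 2.37, for EM by 2.21, for TaXTH4 on 6A by 1.77, for HSD11BL by 1.74, for CBP3 by 1.68, for BCP by 1.57 and for Bax.1 by 1.52. It moved towards Zhoumai18 for CWINV2SM (-5.51), 6-FEH (-4.69), the LTP2 copies (-4.47 and -3.99), NAC4 (-3.74), TaSAG6 (-3.35), a2a (-3.05), WGA1 on 1A (-2.74), GPI (-2.72) and ERG3 on 2B (-2.66). Of these, xat1, an arabinosyltransferase of xylan, turned its sign: the log2 difference was -1.39 at 0 h and 1.06 at 48 h. SOD1.1 turned too, from -0.54 to 4.78. WGA1 encodes the lectin wheat germ agglutinin, and its copy on 1A (TraesCS1A01G326800) was at means of 118 CPM in Shengsimai and 15.3 CPM in Zhoumai18 at 0 h, while at 48 h its 3 Shengsimai libraries at 70.1, 66.2 and 64.5 CPM were close to 56.7, 59.7 and 57.1 CPM (adjusted p = 0.23).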

How the results depend on the processing

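The count of 36245 genes at 48 h ran from 34966 to 42824 over changes of scaling, tool, block and filter other than the unfiltered fit, which called 53681 of 135713 genes, and from 34065 to 34578 with a library left out. A 2-fold minimum left 14278 genes. For the change from 0 to 48 h, the counts ran from 29156 to 38371, from 28701 to 29542 with a library left out, and to 14113 with the 2-fold minimum. There the share of upward changes was 47.3% in the fit reported, 66.6% with library totals alone and 58.6% and 61.1% with limma on log2(FPKM + 1) and log2(FPKM + 0.1). Added after the data were seen, counts without the stretches were 34804 and 29196, without unannotated loci 28710 and 24576, and for genes at 1 FPKM in all 6 libraries 25334 and 23842.

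Same-numbered libraries did not deviate together (correlations -0.133 to 0.0844), and not every library matched best with its own number. With the replicate number as a block, 36266 and 30271 genes were called.

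The 48 h calls that held at 0 h ranged from 16625 to 17075 with a library left out, and those that held at 96 h from 25528 to 26455. With at least 30 counts in the other variety in place of 100, 3045 genes had counts in Shengsimai alone and 4369 in Zhoumai18 alone. With a library left out, these ranged from 1537 to 2012 and from 1617 to 2391, and runs from 2 to 4. Members of the fixed lists called at 48 h ranged from 35 to 37, with 36 in the fit reported. The numbers tested are given with the lists above, and 67.9% of all tested genes were called. Some of these members passed the filter in Shengsimai alone or in Zhoumai18 alone, which fixed their direction. The narrow range is therefore no separate evidence for the lists.

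A turn of direction was counted only where a gene was called in the fit reported or in the alternative. By this rule no named gene turned its direction at 48 h in any alternative run. The change from 0 to 48 h turned for MAPK2A (TraesCS1B01G104900) to 0.39 and for TraesCS3D01G468500 to -0.10 with limma on log2(FPKM + 1), for PDI2 (TraesCS4B01G101800) to 0.11 with library totals alone and to 0.07 with limma at either pseudocount, and for H2A-2 (TraesCS6D01G062800) to 4.30 without the first Shengsimai 0 h library (with a library left out, -1.0 to 4.30). The cause was not tested. Genes of a few counts per library rest on counting error, and 3 spikes a group limit every p-value.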
